A study of Mus musculus with 4 samples.

Results

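The genes S100a8, S100a9, Camp, Ngp, Ltf, Mpo, Elane, Retnlg and Mmp8 encode proteins that neutrophils store in granules or, for the S100 pair, hold in the cytoplasm. They were taken by symbol from the expression tables of mouse gastrocnemius, a calf muscle, and are 9 of the 23282 gene rows. Male CDF1 mice were kept as a normal control (E-T-), ran at high intensity on a treadmill (normal exercise, E+T-), carried a tumor (cancer control, E-T+), or carried a tumor and ran (cancer exercise, E+T+). The tumor was raised by putting CT26 cells, a mouse colorectal cancer line, into the blood through the tail vein. The design had 10 mice per group, the labels give postnatal day 28 for every sample, an age the methods have for the arrival of the mice, and each group gave 1 library, which the study describes as made from a representative animal. None of the differences therefore has a replicate check, and no p-value is given.

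Neutrophils fill their granules in a fixed order while they mature in the bone marrow. Azurophil granules with myeloperoxidase and neutrophil elastase come first, specific granules with lactoferrin and the cathelicidin peptide follow, and gelatinase granules come last, while S100a8 and S100a9, the subunits of the calcium-binding protein calprotectin, are kept at high level until the cell is mature. The mRNA of the early granule proteins is lost before the cell leaves the marrow, so that blood neutrophils carry transcripts of late genes and of S100a8 and S100a9, while resting muscle holds few of these cells.

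The genes lie on 5 mouse chromosomes in the GRCm38.p6 assembly, the RefSeq form of the build that the submitters' processing notes call mm10. S100a8 (chr3:90669071-90670034, plus strand) and S100a9 (chr3:90692630-90695721, minus strand) are neighbours with 22.6 kb between them. Camp (chr9:109847377-109849456, minus strand), Ngp (chr9:110419808-110423012, plus strand) and Ltf (chr9:111019292-111042766, plus strand) follow each other on chromosome 9 with gaps of 570 kb and 596 kb. Mmp8 (chr9:7558429-7568486, plus strand) lies far from them on the same chromosome, and Retnlg (chr16:48872608-48874498), Mpo (chr11:87793784-87804412) and Elane (chr10:79886312-79888216) lie on the plus strand of their chromosomes.

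The RefSeq promoter windows of the 4 genes with the most reads are printed because the results turn on these genes. Each window runs 5′ to 3′ on the strand of its gene and ends shortly after the start site, at chr3:90668821-90669120 (plus strand) for S100a8, chr3:90695672-90695971 (minus strand) for S100a9, chr16:48872358-48872657 (plus strand) for Retnlg and chr9:7558179-7558478 (plus strand) for Mmp8. Capitals mark matches, on either strand, to the letters TTGCNNAA (bound by C/EBP factors), GAGGAAGT (bound by PU.1) or TATAAA (the TATA box).
S100a8: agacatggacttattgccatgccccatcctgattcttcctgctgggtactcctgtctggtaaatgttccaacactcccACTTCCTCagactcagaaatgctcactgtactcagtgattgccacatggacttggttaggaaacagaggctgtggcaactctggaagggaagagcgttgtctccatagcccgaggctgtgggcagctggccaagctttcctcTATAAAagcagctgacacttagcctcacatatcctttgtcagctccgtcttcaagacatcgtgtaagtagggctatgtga
S100a9: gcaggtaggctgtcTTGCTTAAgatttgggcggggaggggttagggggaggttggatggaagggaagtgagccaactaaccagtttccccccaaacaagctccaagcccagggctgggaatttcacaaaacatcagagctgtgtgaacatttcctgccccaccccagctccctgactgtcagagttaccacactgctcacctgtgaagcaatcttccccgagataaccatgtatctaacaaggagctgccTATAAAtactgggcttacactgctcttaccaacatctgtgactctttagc
Retnlg: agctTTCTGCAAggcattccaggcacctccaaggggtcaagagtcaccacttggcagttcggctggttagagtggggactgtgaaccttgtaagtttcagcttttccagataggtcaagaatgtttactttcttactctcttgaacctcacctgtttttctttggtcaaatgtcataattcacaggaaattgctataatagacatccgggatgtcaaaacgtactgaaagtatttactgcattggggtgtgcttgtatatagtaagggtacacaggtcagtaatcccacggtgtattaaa
Mmp8: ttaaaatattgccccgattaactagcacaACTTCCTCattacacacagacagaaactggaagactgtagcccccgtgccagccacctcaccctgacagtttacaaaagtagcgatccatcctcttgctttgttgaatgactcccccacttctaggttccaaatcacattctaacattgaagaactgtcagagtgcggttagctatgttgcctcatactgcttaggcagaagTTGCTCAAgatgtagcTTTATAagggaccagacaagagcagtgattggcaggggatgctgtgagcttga

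All 9 genes had a window of 300 bases in the RefSeq table. The C/EBP letters stood in 5 of them (S100a9, Ngp, Ltf, Mmp8 and Retnlg) and in 10.8% of the 32851 mouse promoters of that length. The PU.1 letters stood in 4 (S100a8, Mpo, Elane and Mmp8) against 3.20% of all promoters. TATAAA stood in 3 (S100a8, S100a9 and Mmp8) against 13.6%. Its first base lay 30 bases before the start site in S100a8 and at the start site itself in S100a9. In Mmp8 the match was on the opposite strand and began 3 bases before the start site. The letters TTCNNNGAA, bound by STAT factors, stood in none of the 9 and in 8.30% of all promoters. The matches are a description of these letters in these windows.

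The libraries held from 10648046 (E-T+) to 13225756 (E+T-) reads on genes, and 14427 to 14830 gene rows had reads. The deposited value of a gene is the log2 of its normalized read count plus 1, and whole reads were rebuilt from it. The method reads 3′ ends, so a read count does not grow with transcript length. Of the 9 genes, 8 had reads in some library and 7 reached a normalized read count of 4, the study's own minimum. A count of 3 reads, taken as the floor, is 2.27e-05% to 2.82e-05% of the reads of a library. Intervals are 95% exact binomial (Clopper-Pearson) intervals on reads and, like the floor, cover counting error only. All 12 muscle fibre markers had reads in every library and summed to 7.57% to 11.5% of them, so the labelled tissue was present in all 4. The E-T+ library stood apart in markers of keratinocytes, skin cells that also make S100a8 and S100a9, with 117 reads per 1000000 reads (RPM, summed over the list) against 14.5 to 32.7 in the others.

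The calprotectin subunits were the most abundant of the 9 genes and were present in every library. S100a8 had 16 reads in the E-T- library, 88 in E+T-, 1918 in E-T+ and 885 in E+T+, which are normalized read counts of 17.1, 71.2, 2054 and 958. Both tumor libraries thus stood above both tumor-free libraries, and the cancer control was the highest. S100a9, the partner subunit, had 47, 93, 415 and 642 reads in the same order, normalized read counts of 50.1, 75.2, 444 and 695. Here too both tumor libraries were above both tumor-free ones, with the cancer exercise library the highest. Among all gene rows S100a8 moved from rank 11872 by level in normal control to rank 932 in cancer control, and S100a9 from rank 9895 in normal control to rank 2494 in cancer exercise.

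Retnlg and Mmp8 were grouped here as late genes of mature cells, which does not assign their proteins to a granule. Retnlg, which encodes a resistin-like secreted protein of myeloid cells, had 0 reads in E-T-, 3 in E+T-, 92 in E-T+ and 175 in E+T+. Mmp8, neutrophil collagenase, had 1, 2, 35 and 98 reads in that order. Neither gene passed 3 reads without a tumor, and for both the cancer exercise library was the highest.

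The genes grouped here under specific granules, Camp, Ngp and Ltf, were scarce and were seen almost wholly with a tumor. Camp, the cathelicidin peptide precursor, had 1 read in E-T-, 0 in E+T-, 15 in E-T+ and 14 in E+T+. Ngp, neutrophilic granule protein, had 9 reads in cancer control and 0 in each of the other libraries. Ltf, the iron-binding lactoferrin, had 8 reads in cancer control, 3 in cancer exercise and 0 in both tumor-free libraries.

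The azurophil genes of the set, Mpo and Elane, were at the limit of detection. Mpo, myeloperoxidase, had 4 reads in normal exercise and 0 in the other 3 libraries, and Elane, neutrophil elastase, had 0 reads in all 4, which allows at most 2.82e-05% of the reads in cancer control, the shallowest library. The summed reads of the 9 genes were 65 in E-T-, 190 in E+T-, 2492 in E-T+ and 1817 in E+T+, or 5.77, 14.4, 234 and 165 RPM. In the tumor libraries these reads came from the S100 pair and from late and specific granule genes, and none came from Mpo or Elane. In bulk muscle, more neutrophils and more of a transcript in each cell cannot be told apart.

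**Figure D1:**
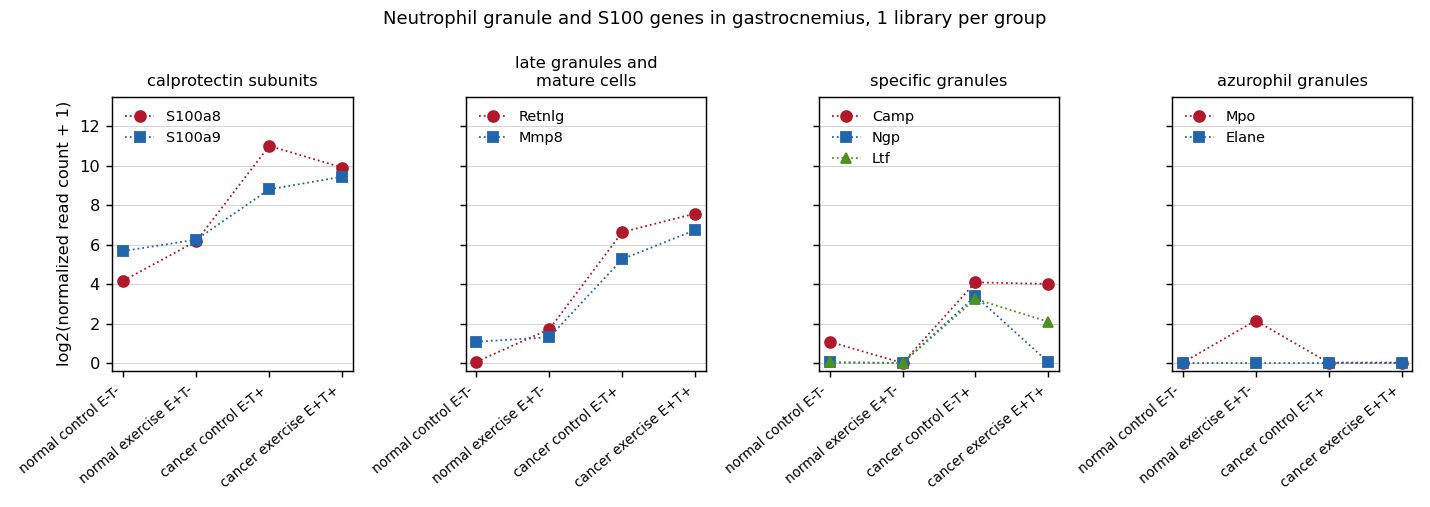
Deposited level of each gene, log2(normalized read count + 1), on the vertical axis for the 4 libraries on the horizontal axis, in panels by role; dotted lines only guide the eye. S100a8 peaks in cancer control at 11.01, S100a9, Retnlg and Mmp8 are highest in cancer exercise, and Elane lies at 0.00 throughout.

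The effect of a tumor in mice that did not run was read from cancer control against normal control. A gene was counted as higher or lower when the deposited log2 values differed by 1 or more, which is 2-fold, and either library reached a normalized read count of 4. By this rule 7 of the 9 genes were higher in cancer control, namely S100a8, S100a9, Retnlg, Mmp8, Camp, Ngp and Ltf, and 0 were lower. Over all genes that met the minimum, 20.9% were higher and 24.2% lower. Retnlg, Mmp8, Camp, Ngp and Ltf met it only through cancer control, so they could not be called lower. S100a8 was 121-fold higher by scaled reads (interval 74.1 to 212), the 15th largest log2 difference upward among 14818 genes. S100a9 was 8.89-fold higher (6.56 to 12.3). The subunits of the same protein thus differed in size of change by more than their counting intervals. Cancer control is the library with the raised keratinocyte markers, and their part in these folds was not tested.

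The late genes moved with them. Retnlg, without reads in the normal control, was 30.9-fold higher against the floor of 3 reads (lower interval end 24.6), the 21st largest difference. Mmp8 was 35.2-fold higher with a wide interval of 5.92 to 1431, since normal control had 1 read. Of the specific granule genes, Camp was 15.1-fold higher (2.32 to 636), also from 1 read. Against the floor Ngp was 3.02-fold higher (lower interval end 1.99) and Ltf 2.68-fold higher (lower interval end 1.72). For both, a difference under 2-fold is within counting error. Those last 3 genes rest on 8 to 15 reads in cancer control. Mpo and Elane had 0 reads in both libraries and give no fold.

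The effect of a tumor in exercised mice was read from cancer exercise against normal exercise. Here 5 of the 9 genes were higher (S100a8, S100a9, Retnlg, Mmp8 and Camp) and 0 were lower, while 13.9% of all genes that met the minimum were higher and 16.3% lower. Retnlg, Mmp8 and Camp met the minimum only through cancer exercise, so they could not be called lower. Retnlg was 77.9-fold higher (26.2 to 382) from 3 reads, the 7th largest difference upward among 14470 genes. Mmp8 was 65.5-fold higher (17.6 to 548) from 2 reads, the 13th largest. S100a8 was 13.4-fold higher (10.8 to 16.9) and S100a9 9.22-fold higher (7.41 to 11.6). Camp was 6.23-fold higher against the floor (lower interval end 4.43).

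This comparison shares no library with the one above. The S100a9 fold was close in both, 8.89 and 9.22, with overlapping intervals, whereas that of S100a8 was 121 without exercise and 13.4 with it, and these intervals lay apart. Ngp had 0 reads in both exercised libraries and Ltf had 3 and 0, so neither gives a fold. Against normal control the cancer exercise library was 56.3-fold higher in S100a8 (34.5 to 99.0) and 13.9-fold in S100a9 (10.3 to 19.1). In Retnlg it was 59.4-fold higher against the floor (lower interval end 47.8). These differences join both factors.

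Exercise in mice with a tumor, cancer exercise set against cancer control, divided the genes. S100a8, Ngp and Ltf were lower, 3 of the 7 genes that met the minimum, against 15.1% of all genes that met it. Mmp8 alone was higher, 1 of 7, against 15.6%. Ngp and Ltf met the minimum only through cancer control, so they could not be called higher. S100a8 was 2.14-fold lower (1.98 to 2.32), with a log2 difference of -1.10, just past the threshold. Ngp was 2.97-fold lower against the floor (lower interval end 1.95). Ltf was 2.64-fold lower on 3 and 8 reads, with an interval from 15.4-fold lower to 1.58-fold higher, so counting alone can give that difference.

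Other genes of the set went the other way in that pair of libraries. Mmp8 was 2.83-fold higher in cancer exercise (1.91 to 4.29). Retnlg was 1.92-fold higher (1.49 to 2.50) and S100a9 1.56-fold higher (1.38 to 1.77), both short of the 2-fold rule with intervals that leave out equality. Camp, with 15 and 14 reads, differed by -0.08 on the log2 scale of reads (-1.24 to 1.07), an interval too wide to exclude a 2-fold difference in either direction.

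The effect of running in healthy mice was read from normal exercise against normal control. Only 2 of the 9 genes, S100a8 and S100a9, met the minimum, so the others could not be called. Of these 2, S100a8 was higher and 0 were lower, against 9.44% and 12.1% of all genes that met the minimum. S100a8 was 4.19-fold higher (2.44 to 7.65) and S100a9 1.51-fold higher (1.05 to 2.19). Retnlg with 3 and 0 reads, Mmp8 with 2 and 1, and Camp with 0 and 1 stayed at or under the floor in both libraries. Mpo had 4 reads against 0, a normalized read count of 3.44 that misses the minimum. The log2 read ratio of S100a8 with exercise was 2.07 without a tumor and -1.10 with one, while that of S100a9 was 0.59 and 0.65.

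**Figure D2:**
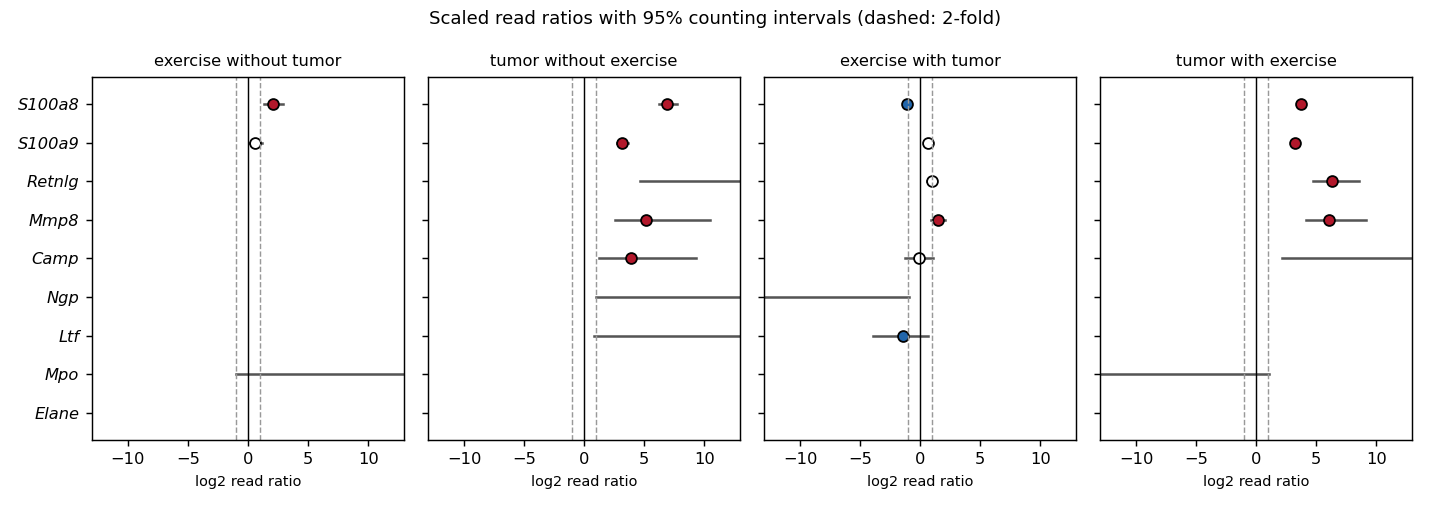
Log2 ratio of scaled reads (horizontal axis) for the 9 genes in each of the 4 comparisons, with bars for the 95% counting interval; red is counted as higher, blue as lower, open as neither, and a bar without a point has 0 reads in a library and runs to the edge of the panel. The tumor comparisons lie to the right for the S100 and late genes, and in exercise with tumor S100a8 lies left of 0 while Mmp8 lies right of it.

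The balance of the calprotectin subunits can be read within a library, where scaling between libraries has no part. There were 0.340 S100a8 reads per S100a9 read in E-T- (0.180 to 0.611), 0.946 in E+T- (0.699 to 1.28), 4.62 in E-T+ (4.15 to 5.15) and 1.38 in E+T+ (1.24 to 1.53). The 4 intervals are apart from each other except those of normal exercise and cancer exercise, which meet near their ends. The ratio was 13.6-fold higher in cancer control than in normal control (7.46 to 25.9) and 3.35-fold lower in cancer exercise than in cancer control (2.89 to 3.89). It was 2.77-fold higher in normal exercise than in normal control (1.42 to 5.63) and 1.46-fold higher in cancer exercise than in normal exercise (1.06 to 2.01).

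The late genes were set against S100a9 in the same way. Per S100a9 read there were 0.222 Retnlg reads in cancer control (0.175 to 0.278) and 0.273 in cancer exercise (0.229 to 0.323), intervals that overlap. Mmp8 reads per S100a9 read were 0.0843 (0.0579 to 0.119) and 0.153 (0.122 to 0.189), intervals that lie apart. Of the summed reads of the 9 genes, S100a8 took 24.6% in E-T-, 46.3% in E+T-, 77.0% in E-T+ and 48.7% in E+T+. S100a9 took 72.3%, 48.9%, 16.7% and 35.3%.

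**Figure D3:**
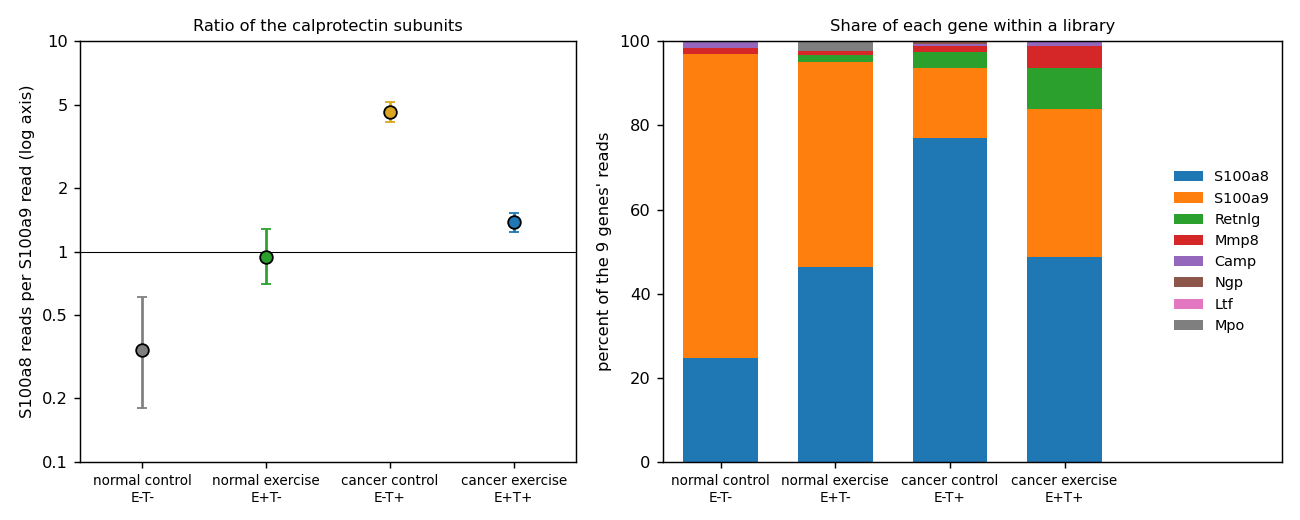
Left, S100a8 reads per S100a9 read in each library on a log axis, with 95% counting intervals; right, the percent of the 9 genes' reads that each gene took. S100a8 outnumbers S100a9 in cancer control by 4.62 and makes up 77.0% of the reads there.

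Further genes of the neutrophil granule stages were counted, from lists. Beside each list count, here and below, stand the shares of all genes that met the minimum. With a tumor these were 20.9% higher and 24.2% lower without exercise, and 13.9% and 16.3% in exercised mice. With exercise they were 15.6% higher and 15.1% lower with a tumor, and 9.44% and 12.1% without. A list count near these shares does not set the list apart. Of 6 further genes listed for the azurophil stage, not all of them genes of granule proteins, 0 were higher in any comparison. With a tumor 2 were lower without exercise and 1 in exercised mice, and with exercise 2 were lower without a tumor and 0 with one. The median log2 differences over the 4 with reads were -1.13, -0.01, -0.75 and -0.22 in that order, against -0.02 to 0.01 over all genes with reads. Ctsg, the serine protease cathepsin G, had 15 reads in each tumor-free library and 0 in each tumor library. Mast cells also make this protease. Prtn3, proteinase 3, had 4, 4, 7 and 5 reads, and Ms4a3, a gene of granulocyte precursors, had 0 reads in all 4 libraries. Most reads of this list came from Prss57, with 149, 87, 138 and 78, and Clec11a, with 121, 41, 26 and 25. With a tumor without exercise the log2 differences were 0.69 for Prtn3, -0.10 for Prss57, -2.16 for Clec11a and -4.02 for Ctsg. The negative median there lies between Prss57 and Clec11a, and Prtn3 went the other way.

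Of 17 further genes of specific granules, 8 were higher and 1 lower with a tumor without exercise, with a median of 1.18, and 6 were higher and 1 lower with a tumor in exercised mice, with a median of 0.78. Exercise with a tumor had 1 higher and 5 lower with a median of -0.58, and exercise without one 3 higher and 2 lower with -0.22. Lcn2, the iron-siderophore carrier lipocalin 2, had 5, 33, 1339 and 618 reads. Its order over the libraries was that of S100a8. Lcn2 reads per S100a8 read were 0.698 in both tumor libraries (0.651 to 0.749 in cancer control, 0.629 to 0.775 in cancer exercise). The ratio was 0.312 in normal control (0.0895 to 0.893) and 0.375 in normal exercise (0.243 to 0.565). The normal exercise interval lies below those of both tumor libraries. The other genes named by level were Lyz2, lysozyme, with 378, 403, 312 and 579 reads, Cyba, a subunit of the phagocyte oxidase, with 278, 326, 247 and 162, Hp, haptoglobin, with 498, 337, 318 and 386, and Anxa1, annexin A1, with 450, 489, 812 and 438. These 4 missed the 2-fold rule in each comparison.

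A list of 29 genes of mature neutrophils had 27 in the files. Of these, 18 were higher and 2 lower with a tumor without exercise, and 17 were higher and 2 lower with a tumor in exercised mice, with medians of 3.39 and 2.05 over the genes with reads. Exercise with a tumor had 6 higher and 9 lower (median -0.37), and exercise without one 5 higher and 3 lower (-0.05). Named by their level, Itgam, the integrin CD11b that macrophages share, had 112, 124, 154 and 189 reads, and Alox5ap, which serves leukotriene synthesis, had 144, 151, 332 and 354. Hdc, which makes histamine, had 14, 9, 269 and 30. G0s2, a lipase inhibitor that muscle and fat make too, was lower in both tumor libraries, with 1372, 5477, 133 and 660.

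Csf3r and Cxcr2, receptors of the mature neutrophil list named here after their values were seen, were low. Csf3r, the receptor of the granulocyte growth factor G-CSF, had 0 reads in 3 libraries and 12 in cancer exercise. Cxcr2, the receptor of neutrophil chemokines, had 11, 13, 21 and 13. Csf3r, on 12 reads, was highest in cancer exercise, as were Retnlg and Mmp8, and was not detected in cancer control. Other receptors of the list, also named after their values were seen, differed. Fpr2 had 4, 13, 47 and 43 reads, Clec4d 0, 17, 162 and 94, and Fpr1 0, 0, 0 and 5. The stefin A genes of the list (Stfa1, Stfa2, Stfa3, Stfa2l1, BC100530 and Gm5483) are near-identical copies whose reads may be split between them. Each had 0 reads in normal control and 11 to 100 in cancer control. In cancer exercise they had 20, 2, 0, 4, 37 and 38 in that order. Cancer control is the library with the raised keratinocyte markers, and the part of keratinocytes in the values of this list was not tested.

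**Figure D4:**
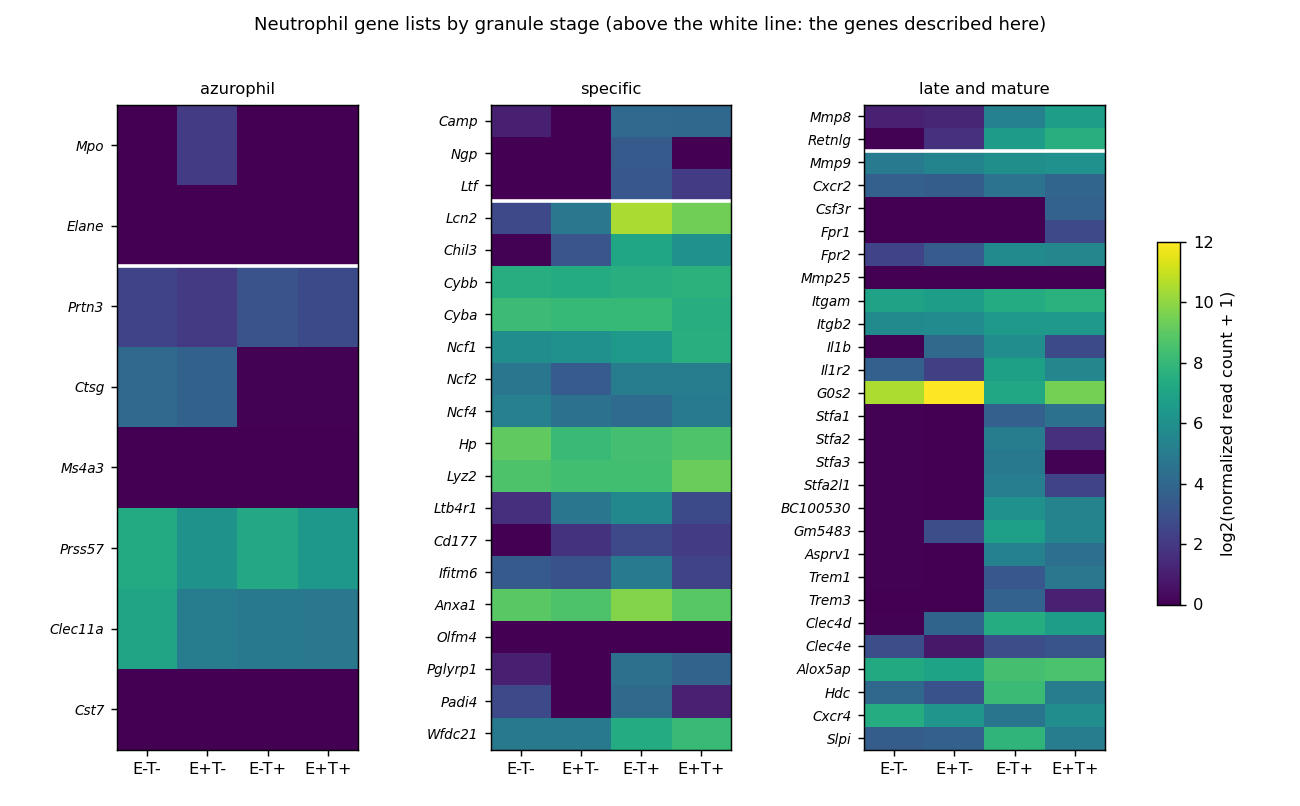
Heat map of log2(normalized read count + 1) for the azurophil, specific granule, and late and mature neutrophil genes (rows) in the 4 libraries (columns), with the genes described here above the white line. In the azurophil panel Mpo reaches 2.15 in normal exercise and Elane lies at 0.00, and in the other panels the 2 tumor columns are brighter for Lcn2, Chil3, Retnlg and Mmp8.

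Among 9 transcription factors of granulocytes, 4 were higher and 3 lower with a tumor without exercise. In exercised mice 4 were higher and 1 lower with a tumor. Cebpd, which also answers to inflammation in many tissues, had 591, 593, 7142 and 3953 reads, and Cebpb, of the same family, had 464, 347, 1012 and 913. Both were higher in the tumor libraries, and many cell types of muscle make them. Cebpa, which starts granulocyte fate, had 295, 194, 98 and 120 reads. In exercise with tumor 0 were higher and 2 lower, Runx1 with 164 and 66 reads and Klf5 with 470 and 146, and without tumor 0 were higher and 2 lower.

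Of 21 genes that draw neutrophils to tissue, 6 were higher and 3 lower with a tumor without exercise, beside 20.9% and 24.2% of all genes. With exercise in tumor-bearing mice 2 were higher and 5 lower, beside 15.6% and 15.1%. The tumor comparison in exercised mice had 4 higher and 4 lower, and exercise without a tumor 3 higher and 2 lower. Icam1, an adhesion molecule of inflamed vessels, had 63, 36, 154 and 62 reads, and Cxcl12, which holds neutrophils in the marrow, had 1750, 2258, 741 and 1004. Named after their values were seen, the chemokines Cxcl1 and Cxcl5 had 3, 13, 59 and 25 reads and 0, 8, 68 and 0 reads. Selp, P-selectin, had 6, 20, 86 and 125. Both chemokines were highest in cancer control, like S100a8, while Selp was highest in cancer exercise, like S100a9. Other genes of the list, also named after their values were seen, differed from that. The chemokine Ppbp had 25, 12, 60 and 81 reads and was highest in cancer exercise. C5ar1 had 52, 80, 4 and 56, and Ptafr 26, 18, 3 and 11, both lowest in cancer control.

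Of 7 receptors and adaptors for S100a8 and S100a9, 3 were higher with a tumor without exercise, 2 with a tumor in exercised mice, 1 with exercise in tumor-bearing mice, where 1 was also lower, and 0 with exercise without a tumor. Tlr4, the main receptor of calprotectin, had 87, 106, 133 and 128 reads, within the 2-fold rule in each comparison. Its coreceptor Cd14 had 52, 110, 167 and 88. Of 14 protease inhibitors, several of which block neutrophil proteases, 9 were higher and 1 lower with a tumor without exercise, and 0 were higher and 7 lower with exercise in tumor-bearing mice. The tumor comparison in exercised mice had 4 higher and 0 lower, and exercise without a tumor 2 and 2. Serpina3n, an inhibitor of granule proteases, had 153, 122, 3420 and 1897 reads.

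The rest of the S100 family did not move as a block with S100a8 and S100a9. Of 15 further S100 genes in the files, 6 were higher and 4 lower with a tumor without exercise, and 1 higher and 1 lower with a tumor in exercised mice. Exercise gave 3 higher and 4 lower with a tumor and 2 higher and 1 lower without one. S100a4, made by fibroblasts and macrophages, had 1169, 1450, 6743 and 2413 reads, and S100a6 had 4506, 6587, 10743 and 7110. Both were highest in cancer control. S100a1, the form of muscle fibres, had 5053, 5332, 2225 and 4951 and was lowest there.

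Markers of other cells that make S100a8 and S100a9, or come with blood, were set beside these values. Keratinocytes make both S100 proteins, and 13 of 21 keratinocyte markers in the files were higher and 1 lower in cancer control than in normal control. The list summed to 32.7 RPM in E-T-, 29.2 in E+T-, 117 in E-T+ and 14.5 in E+T+. The cancer control library stood apart: 3 of the markers had 0 reads in it, against 11 to 13 in each of the others. Flg2, filaggrin 2, had 148 reads in cancer control and 0 elsewhere, and Lor, loricrin, had 4, 0, 199 and 4.

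The S100a8 reads moved with that list in part of the comparisons. From cancer control to cancer exercise, 15 of the 21 markers were lower and 0 higher, as S100a8 was lower. Their part in the S100a8 values of cancer control was not tested. In exercised mice the list summed to 14.5 RPM with a tumor and 29.2 without, with 13 and 12 of the 21 markers at 0 reads. There 3 markers were higher with a tumor, Lor (4 against 0 reads), Lgals7 (14 against 2) and Trp63 (27 against 14), and 4 were lower. The part of keratinocytes in the S100a8 and S100a9 values of that comparison was not tested either.

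Red cell markers, which follow the blood left in a muscle, took 2.75% of all reads in E-T-, 0.621% in E+T-, 2.77% in E-T+ and 5.83% in E+T+. Their share was nearly the same in the control libraries, where 7 of the 9 genes were higher with a tumor, and 10 of 11 were higher with a tumor in exercised mice, where 5 of the 9 genes were higher. With exercise in tumor-bearing mice 10 of 11 were higher as well, beside the higher Mmp8. Some globin rows of this list had near-equal reads in pairs, such as 59726 and 58863 or 16316 and 15436 in E-T-. The same reads may thus be counted more than once, so the red cell shares may be too high and the counts of genes inflated. The part of blood in the values of the 9 genes was not tested in any comparison.

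Monocyte markers summed to 338, 229, 279 and 338 RPM in the 4 libraries and macrophage markers to 550, 512, 775 and 768. With a tumor without exercise, 3 of 10 monocyte markers were higher and 3 lower, and 4 of 12 macrophage markers were higher and 2 lower. With a tumor in exercised mice, where S100a8 and S100a9 were also higher, 4 monocyte markers were higher and 1 lower (median log2 difference 0.83), and 3 macrophage markers were higher and 1 lower (0.79). The part of these cells was not tested. Platelet markers summed to 91.0, 92.2, 153 and 108 RPM. Markers of eosinophils and mast cells summed to 85.4, 45.7, 77.2 and 34.4, with the eosinophil genes Prg2, Epx, Siglecf and Ccr3 at 0 reads in all libraries. T and NK cell markers summed to 0.532, 3.93, 3.47 and 1.36, and those of B and plasma cells to 1.06, 4.46, 1.31 and 1.27. Endothelial markers summed to 267, 398, 327 and 320. Over the same libraries the S100 pair spanned from 5.59 RPM in normal control to 219 in cancer control. The part of any of these other cells in that span was not tested.

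**Figure D5:**
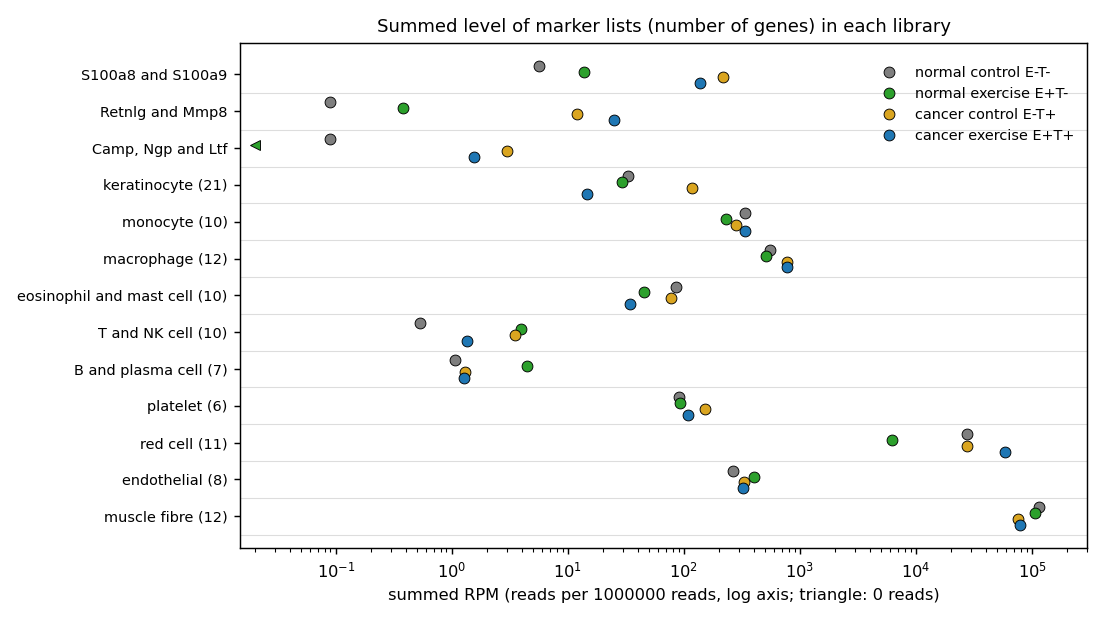
Summed RPM on a log axis for groups of the 9 genes and for marker lists of other cell types (rows, with the number of genes), 1 point per library. In the S100 pair, the late genes and the specific granule genes both tumor libraries lie right of both tumor-free ones, and the keratinocyte list is highest in cancer control at 117.

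The genes most like each leading gene were sought among the 13197 genes whose normalized read count reached 16 in some library, by the Euclidean distance between log2 values, each centred on its own mean over the 4 libraries. With 4 libraries such likeness is a description. For S100a8 the nearest were a (nonagouti, a pigment gene of the skin, distance 0.20), Chil3 (a chitinase-like protein of myeloid cells, 0.84), Ankrd1 (a stress gene of muscle fibres, 0.87), Gm5483 (a stefin A gene, 0.90) and Lcn2 (0.93). The nearest gene, a, had 0, 4, 94 and 44 reads, and Chil3 had 0, 10, 125 and 61.

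For Retnlg the nearest were Stc2 (the hormone stanniocalcin 2, distance 0.90), Serpina3h (a serpin, 1.23), Lcn2 (1.47) and the metallothioneins Mt1 (1.61) and Mt2 (1.68), farther off than those of S100a8. For Camp they were Mrgprg, Clec18a and Rasl10b (0.32 each), Pglyrp1 (a specific granule protein that binds bacterial cell walls, 0.38) and Stx11 (0.40). Pglyrp1 had 1, 0, 19 and 12 reads beside the 1, 0, 15 and 14 of Camp. For Mpo, with 4 reads in a single library, the nearest were Slc2a5 (0.20), Fgfr4 (0.37), Slc26a10 (0.44), Traf4 (0.45) and Sass6 (0.47).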

How the data were processed

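RNA of 4 gastrocnemius samples was read by QuantSeq 3′ mRNA sequencing. The authors used Bowtie2 to align and bedtools to count per gene, and normalized the counts by a quantile method in edgeR, and the submitters' notes name build mm10. Strand and multi-mapping rules are not given in the sources used here. The deposited unit is log2 of the normalized read count plus 1. Groups came from the sample titles.

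Reads were rebuilt by fitting 1 scaling factor per library and 1 dispersion (0.339). Of the deposited log2 values, 100% came within 0.0007 of a whole read count, 94.2% to 95.6% per library were tied to a single count, and the scaling differed by at most 0.0115% from the trimmed mean of M values (TMM). The procedure was tested on simulated data. Python 3.11.15, numpy 2.4.6, pandas 2.3.3, SciPy 1.17.1 and matplotlib 3.10.9 were used.

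Differences were taken between deposited log2 values, a scale whose pseudocount of 1 understates the change of low genes. A library with 0 reads was set to a floor of 3 reads for the fold, while the interval was taken on the reads themselves. No fold was given where both libraries had at most 3. Zero-read genes can hold a small positive deposited value, so detection was judged on reads. The members and the gene lists were chosen with earlier results of these data known. Named beside the 9 genes were at most 5 genes per list, those with the highest summed normalized read counts, and the 5 genes nearest to the leading gene of each role. Csf3r, Cxcr2, Fpr1, Fpr2, Clec4d, Cxcl1, Cxcl5, Selp, Ppbp, C5ar1, Ptafr, Lgals7, Trp63, the stefin A genes and the eosinophil genes at 0 reads were chosen after their values were seen. The scaling, pseudocount, minimum and fold threshold were varied. Gene symbols were used as deposited, of which 79 rows carried a repeated symbol. The list of mature neutrophil genes holds 1 gene that is counted but not reported here by itself.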

Additional observations from a re-analysis of the deposited data

Results flagged for a closer look

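The difference between the 2 exercise effects was not tested, since each rests on 1 pair of libraries. Effects of opposite sign, each at least 2-fold, were found in 7 of the genes named here, 1 of them among the 9. The log2 exercise difference with a tumor minus that without was -3.10 for S100a8 (4.19-fold higher by scaled reads without, 2.14-fold lower with) and -3.21 for Lcn2 (2.11 without, -1.10 with). For Cxcr4, the receptor that holds neutrophils in the marrow and is also made by other leukocytes and muscle cells, it was 2.37 (-1.18 without, 1.19 with), from 164, 94, 23 and 53 reads. It was -4.11 for Chil3 (3.10 without, -1.01 with), -4.17 for Gm5483 (2.81 and -1.36), -2.62 for Cxcl1 (1.43 and -1.19) and -8.95 for Cxcl5 (2.82 and -6.13), genes with 0 to 3 reads in normal control. Cxcl1 and Cxcl5 were named after their values were seen. Chil3 and Gm5483 were named for a profile near that of S100a8 over the same libraries, so effects of the same signs were given in advance. The share of such genes over all genes was not counted, so the 7 say nothing about how common these effects are. The cancer control library, which stood apart in its keratinocyte markers, enters each of these values.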

How the results depend on the processing

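No paired analysis was possible because each group has 1 library, and for the same reason no replicate could be left out. Over 7 alternatives, 48 of 56 counts of the 9 genes and 339 of 392 counts of the lists came within 1.5 times the reported count. All 24 counts of the 9 genes under scaling by TMM, by median of ratios or by total count did so. None of 84 recomputed log2 differences of the 9 genes changed sign, and all 84 lay within their counting intervals, which have no end where a library has 0 reads. With no minimum, 3 of the 9 genes were higher and 1 lower in exercise without tumor, and 1 was lower in tumor with exercise. With a minimum of 16, 4 were higher in tumor without exercise and 1 lower in exercise with tumor, where over all genes 1418 were lower, and exercise without tumor had 753 higher and 988 lower. At 4-fold, 0 of the 9 genes were higher in exercise without tumor, and in exercise with tumor 0 were higher and 1 lower. Over all genes the 4-fold counts, higher and lower, were 611 and 826 in exercise without tumor, 1391 and 1787 in tumor without exercise, 997 and 1061 in exercise with tumor, and 910 and 1041 in tumor with exercise. These counts fall by the construction of the stricter rules. Total count scaling moved the median log2 difference of all genes to 0.15 from -0.01 in exercise without tumor and to -0.19 from -0.03 in tumor with exercise. Mpo and Elane, at 0 to 4 reads, and Camp, Ngp and Ltf, at 8 to 15 in cancer control, are limited by depth.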
